A study of Mus musculus with 13 samples.

Results

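The replication-dependent histone genes encode the histones that package newly copied DNA, and they are described here over 18 h of mild cooling together with Rnu7, the gene of the U7 small nuclear RNA that their transcripts need for processing. The genes were chosen by name, as all genes with an older symbol beginning Hist1h, Hist2h, Hist3h or Hist4h or the matching current symbol, plus Rnu7. The counts of histone genes below therefore also include the pseudogene H2bu1-ps and the testis types H1f6, H2ac1 and H2bc1. Earlier results of these data were known when this was done. The reference annotation holds 72 such genes. Of these, 32 had a transcript cluster of their own (the set of probes that the array reads as 1 transcript) and were tested among 19938 genes, 38 were read only by clusters assigned to several genes, and 2 by none. The 32 are 5 linker histone genes (H1), 5 H2A, 11 H2B, 3 H3 and 7 H4 genes, and Rnu7. On the genome 23 of them lie on chromosome 13, 4 on chromosome 3, 3 on chromosome 11 and 2 on chromosome 6.

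RNA came from primary mouse embryonic fibroblasts of a commercial source, cells grown out of mouse embryos, which were kept at 37 °C (normothermia) or moved to 32 °C (mild hypothermia). Each temperature was measured once at 0.5, 1, 2, 4, 8 and 18 h, and an array at 0 h, labelled normothermia, starts both courses, so that 7 arrays represent 37 °C and 6 represent 32 °C. Each of the 13 arrays received RNA combined from 3 dishes and none was repeated. An error below is therefore the standard error of a fit, from the scatter of arrays or of temperature differences about the fitted values. The fit draws this scatter towards a level common to all genes, and early and late effects share 1 scatter. Precision is limited by how few arrays there are. The age, strain and sex of the embryos were not used here. All 12 fibroblast markers examined lay above the median signal of the array (7.21 on the log2 scale), as did 1 of 6 macrophage, 0 of 5 endothelial, 1 of 5 epithelial, 2 of 4 muscle, 1 of 4 neural and 0 of 4 germ cell markers. Their summed intensity ranged from 55363 to 60301 at 32 °C and from 58794 to 59915 at 37 °C for fibroblasts, and from 474 to 608 and from 449 to 477 for macrophages. The part of such cells in any value below was not tested. Array medians ranged from 145 to 149.8 intensity units.

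Histones H2A, H2B, H3 and H4 form the core of the nucleosome, around which DNA is wound, and H1 binds where the DNA enters and leaves it. Cells make these proteins mainly during S phase, from genes that lie in clusters, lack introns and mostly end in a stem-loop in place of a poly(A) tail. The stem-loop binding protein and the U7 particle guide the cut that forms this end, and the same stem-loop lets the mRNA be degraded quickly when DNA synthesis stops. In a growing culture, the level of these mRNAs is therefore commonly read as a sign of how much DNA is being replicated. In bulk RNA, fewer cells in S phase and less histone mRNA per cell cannot be told apart. The coding parts of genes of 1 class are nearly identical, so the values of H2A, H2B, H3 and H4 genes are uncertain as to which copy gave the signal.

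The promoters of these genes share short elements, and 6 of them are shown because their genes carry the results below or stand for a class. H3c15 and H3c4 are H3 genes with lower signal at 32 °C in all pairs and from 2 h on, respectively. H1f2 and H1f3 are H1 genes with higher signal at 32 °C in all pairs and up to 4 h, respectively. H2bc3 and H4c6 stand for the H2B and H4 classes. Each line gives the 160 bases before the annotated start site, 5′ to 3′ on the gene's strand, from RefSeq on GRCm38.p6. Capitals mark matches, on either strand, to TATAAA, the CCAAT box (CCAAT), the octamer known from H2B promoters (ATTTGCAT), GGTCC as in the cell cycle element of H4 promoters, and the H1 box (AAACACA), the last added after the windows had been seen. The stretches lie at chr3:96239128-96239287 (minus strand), chr13:23575603-23575762 (plus), chr13:23738647-23738806 (plus), chr13:23554872-23555031 (plus), chr13:23746574-23746733 (plus) and chr13:23551669-23551828 (minus).
H3c15: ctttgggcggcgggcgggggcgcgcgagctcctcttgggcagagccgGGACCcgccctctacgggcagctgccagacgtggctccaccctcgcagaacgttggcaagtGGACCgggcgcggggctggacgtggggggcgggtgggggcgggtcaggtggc
H3c4: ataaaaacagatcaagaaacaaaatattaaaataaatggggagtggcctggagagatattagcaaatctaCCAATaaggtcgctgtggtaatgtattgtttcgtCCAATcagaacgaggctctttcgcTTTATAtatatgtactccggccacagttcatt
H1f2: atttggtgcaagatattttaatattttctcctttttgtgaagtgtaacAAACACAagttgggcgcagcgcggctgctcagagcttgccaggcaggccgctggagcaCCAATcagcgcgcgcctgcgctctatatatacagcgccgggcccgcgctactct
H1f3: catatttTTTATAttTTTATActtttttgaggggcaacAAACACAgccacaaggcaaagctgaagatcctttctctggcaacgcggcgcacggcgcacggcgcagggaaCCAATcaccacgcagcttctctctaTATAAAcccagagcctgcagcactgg
H2bc3: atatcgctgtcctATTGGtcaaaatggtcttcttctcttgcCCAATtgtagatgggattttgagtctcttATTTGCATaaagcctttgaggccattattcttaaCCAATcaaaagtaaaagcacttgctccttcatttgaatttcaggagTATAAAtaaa
H4c6: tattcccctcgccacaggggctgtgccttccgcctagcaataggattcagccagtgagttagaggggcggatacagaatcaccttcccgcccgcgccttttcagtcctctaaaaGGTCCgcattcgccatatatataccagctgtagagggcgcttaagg
The CCAAT match nearest to the start begins 56 bases before it in H3c4 and H2bc3, 54 in H1f2 and 51 in H1f3. H3c15 has no CCAAT or TATAAA in the stretch shown, and its only CCAAT begins 14 bases after the annotated start. In windows from 250 bases before to 50 after the start, available for 26 of the 32 genes, CCAAT was found in 22, TATAAA in 16, GGTCC in 10, ATTTGCAT in 9 and AAACACA in 8. Over all 32851 promoter windows of this length the shares were 37.4% for CCAAT, 13.6% for TATAAA, 45.5% for GGTCC, 1.74% for ATTTGCAT and 7.18% for AAACACA. The octamer occurred in 4 of 5 H2A and 5 of 8 H2B windows and in none of the other 13, GGTCC in all 6 H4 windows, and AAACACA in 4 of 5 H1 windows. H2bc21, H2bu1-ps, Rnu7, H4c14, H2bc4 and H3c7 had no window.

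Between 32 °C and 37 °C most histone genes differed in opposite directions at the first and at the last time. At 0.5 h, 28 of the 31 histone genes (90.3%) read higher at 32 °C, by a median of 0.18 on the log2 scale, against 58.4% of all genes tested and a median over these of 0.03. At 18 h only 5 of 31 (16.1%) read higher and the median difference was −0.22, or 0.861-fold, against 54.6% and 0.02 over all genes. These 5 were H1f2, H2aw, H2bc21 and the testis types H1f6 and H2ac1. The 26 others were all lower at 32 °C. In between, 18 of 31 were higher at 1 h, 14 at 2 h, 21 at 4 h and 25 at 8 h, with medians of 0.04, −0.03, 0.07 and 0.17, where 49.2%, 51.7%, 48.1% and 47.5% of all genes were higher. Each of these is a comparison of 1 array with 1 array, so no test applies to a single time. Over the 3 early pairs the median effect was 0.05, and without the 0.5 h pair it was −0.002, so the early direction of this median rests on that pair. Most H1 genes and most clusters shared by several histone genes, given below, were higher at 32 °C at 1 and 2 h too.

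**Figure D1:**
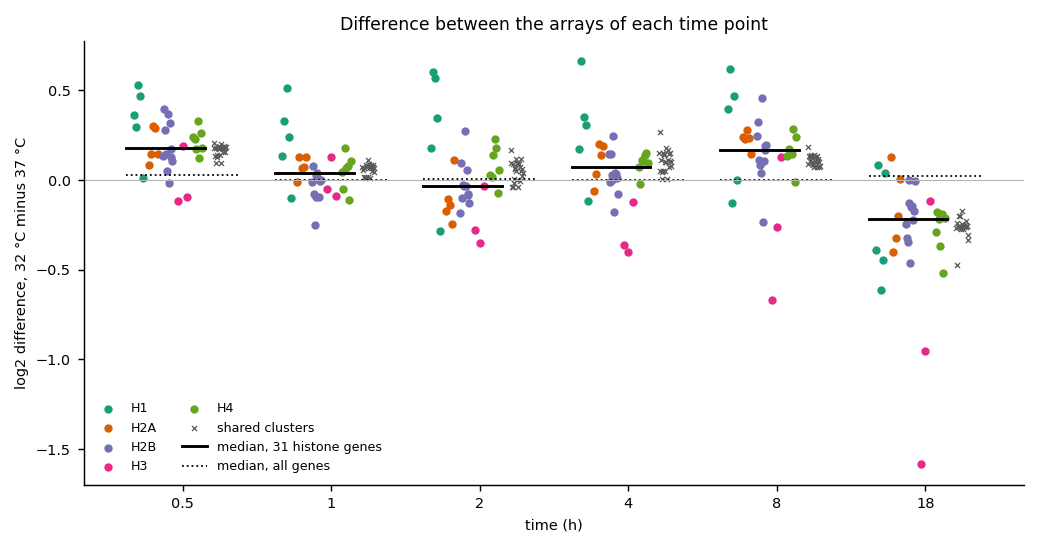
Log2 difference between the 32 °C and the 37 °C array (vertical axis) at each time (horizontal axis, h). Coloured points are the 31 histone genes by class, crosses the 23 transcript clusters shared by several histone genes, solid bars the median of the histone genes and dotted bars the median of all genes. The histone median lies at 0.18 at 0.5 h and at −0.22 at 18 h.

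Relative to the 0 h array, both courses moved. At 37 °C the median histone gene read 0.10 below its starting value at 0.5 h and 0.17 below it at 8 h, with 3 of 31 above the start at 8 h, and 0.07 above it at 18 h, with 25 of 31 above. At 32 °C it read 0.07 above the start at 0.5 h, with 21 of 31 above, and 0.19 below it at 18 h, with 7 of 31 above. The difference of 18 h thus lay between an array at 37 °C with slightly more histone signal than at the start and an array at 32 °C with less. Over all genes the median change from 0 h was between −0.004 and 0.035 on every array. Both courses start from the same array and are not independent of it.

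**Figure D2:**
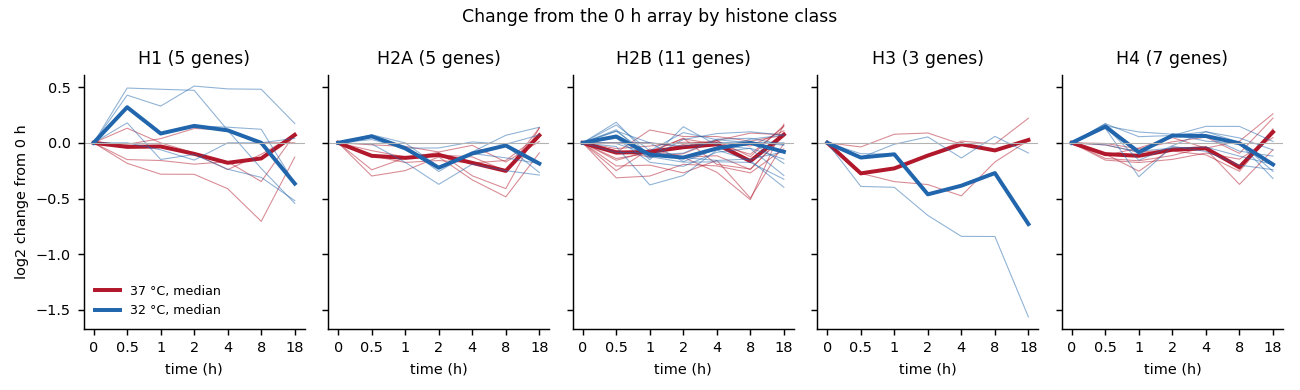
Log2 change from the 0 h array (vertical axis) over time (horizontal axis, h, evenly spaced) by histone class. Thin lines are single genes and thick lines the class medians, red at 37 °C and blue at 32 °C. In every class the blue median lies above the red one at 0.5 h and below it at 18 h. In the 3 H3 genes it lies below the red one at every time from 2 h on.

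The slope of the log2 signal on the order of the 7 times was negative for 23 of 31 histone genes at 32 °C, with a median of −0.028 per step, against 43.4% of all genes and a median of 0.005. The median slope was −0.011 without the 18 h array and −0.017 without that of 0.5 h. It was negative for 16 of 31 at 37 °C, with a median of −0.001. After Benjamini-Hochberg adjustment over all genes in limma, 1 histone gene fell at 32 °C, H3c15, and Rnu7 rose, against 0.0502% of all genes falling and 0.0451% rising. At unadjusted p under 0.05, 7 histone genes had a negative slope (9.35% of all genes) and Rnu7 alone of the 32 a positive one (7.14%). At 37 °C no gene of 19938 passed (0%), and 1 member, H3c4, had a positive slope at unadjusted p under 0.05 (3.62% of all genes). By Kendall's tau with an exact p under 0.05, 5 of 32 fell at 32 °C (H1f1, H2ac8, H2bc14, H3c4 and H3c15; 4.74% of all genes) and 1 rose (Rnu7; 4.41%). None of these passed adjustment over all genes, and no other gene did. The exact p for 7 times cannot fall below 0.000397, which 19 rising and 20 falling genes of 19938 reached at 32 °C. The adjusted result therefore does not separate the members from other genes.

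Divergence is the slope, per step of time order, of the difference between the temperatures, forced through the shared 0 h array. A difference that stays level from 0.5 h on therefore also counts. H3c15 and H3c4 diverged downward, against 1.66% of all genes, and none of the 32 upward, against 1.17%. The mean difference over the late pairs (4, 8 and 18 h) passed for H3c15 alone, downward, against 2.15% of all genes called lower and 0.802% higher. Over the early pairs (0.5, 1 and 2 h) no gene passed (0%), and H1f2, H1f3 and H1f5 were higher at unadjusted p under 0.05 (4.18% of all genes). Over all 6 pairs no member passed, against 0.015% higher and 0.0552% lower. H1f2 and H2aw were higher there at unadjusted p under 0.05 (7.13%) and H3c15 lower (6.39%). The change from early to late effect passed for no gene (0%). The median divergence of the 31 histone genes was 0.001, and that of all genes 0.002.

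**Figure D3:**
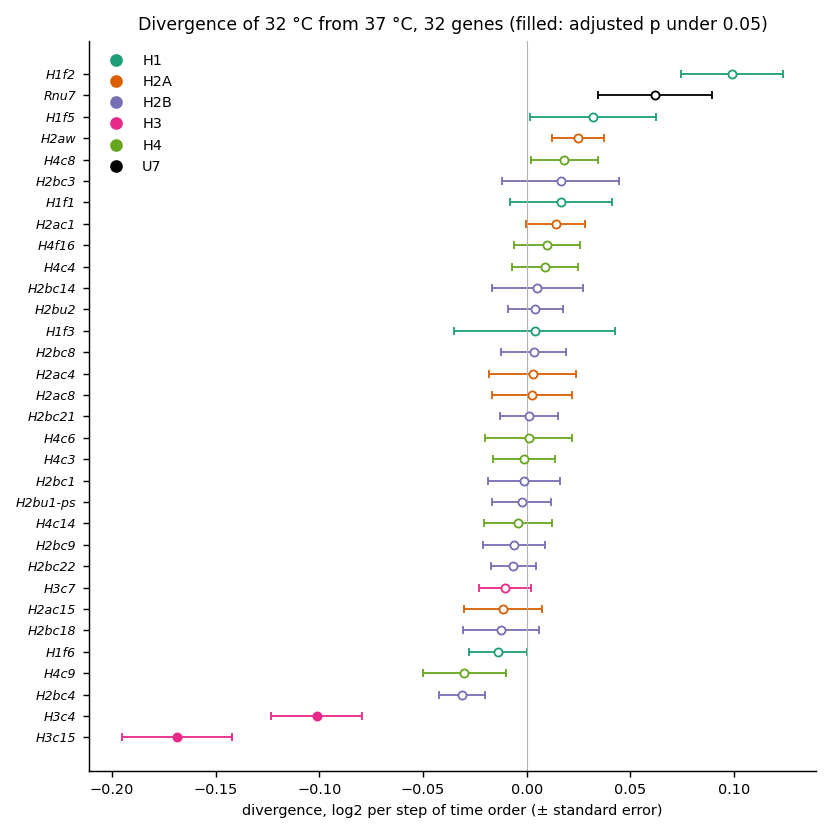
Divergence of 32 °C from 37 °C in log2 units per step of time order (horizontal axis) for the 32 genes, with standard errors of the limma fit. Filled points passed an adjusted p of 0.05. Only H3c15 at −0.17 and H3c4 at −0.10 are filled, and H1f2 at 0.10 is the highest.

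Among the H3 genes, which code for the core histone whose tail carries many of the known histone marks, H3c15 (Hist2h3c2, chromosome 3) had the most negative slope at 32 °C and the most negative divergence of the 32. H3c15 read 7.01, 6.74, 6.66, 6.64, 6.54, 6.84 and 7.03 at 37 °C, in the order of the times from 0 to 18 h, and 6.62, 6.61, 6.36, 6.17, 6.17 and 5.45 at 32 °C from 0.5 to 18 h. Every array at 32 °C was below the one before it (Kendall's tau of −1, exact p = 0.000397, as in 20 of 19938 genes), and every pair was lower at 32 °C, although the ranges of both temperatures overlapped. By 18 h the signal was 0.338-fold of that at 0 h at 32 °C and 1.01-fold at 37 °C. The slope at 32 °C was −0.22 ± 0.03 (standard error, adjusted p = 0.0375) and 0.00 ± 0.03 at 37 °C (adjusted p = 0.994). The divergence was −0.17 ± 0.03 (adjusted p = 0.0159), and the late difference was −0.87 ± 0.18, or 0.546-fold (adjusted p = 0.0385). Without the 18 h pair they were −0.11 and −0.52. Its signal was below the array's median. Without the 8 h arrays the adjusted p of the divergence was 0.062, and it stayed between 0.0154 and 0.0359 without any other pair. The slope at 32 °C passed without the 2 h or the 8 h array and not without any of the other 5, and the late difference passed without the 4 h pair only.

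H3c4 (Hist1h3d, chromosome 13), a gene of the large histone cluster, read 8.77, 8.48, 8.54, 8.65, 8.78, 8.76 and 8.99 at 37 °C, in the order of the times from 0 to 18 h, and 8.67, 8.67, 8.31, 8.38, 8.50 and 8.04 at 32 °C from 0.5 to 18 h. It was higher at 32 °C at 0.5 and 1 h and lower in the 4 later pairs, with 0.517-fold of the 37 °C signal at 18 h. The divergence was −0.10 ± 0.02 (adjusted p = 0.0392), and it passed only when the 1 h pair was the one left out (adjusted p from 0.0245 to 0.219 over the 6). Without the 18 h pair it was −0.06. Its late difference of −0.54 ± 0.14 did not pass (adjusted p = 0.0698), nor did its slope of −0.10 ± 0.02 at 32 °C (adjusted p = 0.0912). The third, H3c7 (Hist1h3f), read 4.89, 4.85, 4.97, 4.98, 4.88, 4.82 and 4.91 at 37 °C, in the order of the times from 0 to 18 h, and 4.76, 4.88, 4.94, 4.75, 4.95 and 4.80 at 32 °C from 0.5 to 18 h. All its values lay between 4.75 and 4.98, below the array's median, and its divergence was −0.01 ± 0.01 (adjusted p = 0.72).

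The linker histone genes were the class with the highest median difference from 0.5 to 8 h, 0.36, 0.24, 0.34, 0.31 and 0.39 in the order of the times, before −0.39 at 18 h. H1f2 (Hist1h1c), which codes for the subtype H1.2, read 10.32, 10.45, 10.32, 10.23, 10.14, 10.18 and 10.41 at 37 °C, in the order of the times from 0 to 18 h, and 10.75, 10.65, 10.83, 10.80, 10.80 and 10.49 at 32 °C from 0.5 to 18 h. All 6 arrays at 32 °C lay above all 7 at 37 °C, which was so for no other member and for 0.652% of all genes, while no member lay wholly below, as 0.391% of all genes did. The mean difference over 6 pairs was 0.43 ± 0.08, or 1.35-fold, with an unadjusted p of 0.000215 and an adjusted p of 0.0856. Its divergence was 0.10 ± 0.02 (adjusted p = 0.0578) and its late difference 0.46 ± 0.11 (adjusted p = 0.0623, and 0.0347 without the 18 h pair). The difference at 18 h was only 0.08, after 0.62 at 8 h.

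H1f3 (Hist1h1d), the gene of H1.3, read 6.38, 6.34, 6.35, 6.28, 6.14, 6.28 and 6.45 at 37 °C, in the order of the times from 0 to 18 h, and 6.87, 6.86, 6.85, 6.49, 6.15 and 5.84 at 32 °C from 0.5 to 18 h. It was 0.53, 0.51 and 0.57 higher at 32 °C in the first 3 pairs, 0.35 higher at 4 h, 0.13 lower at 8 h and 0.61 lower at 18 h. The early mean was 0.54 ± 0.14, or 1.45-fold, at an unadjusted p of 0.00353 and an adjusted p of 0.504. This error includes the scatter of the late pairs, and the 3 early differences alone had a standard deviation of 0.03. The change from early to late was −0.67 ± 0.20 (adjusted p = 0.269). H1f5 (Hist1h1b) was higher at 32 °C by 0.24 to 0.47 in the pairs from 0.5 to 8 h and 0.44 lower at 18 h. H1f1 (Hist1h1a) was higher by 0.13 to 0.39 over the same times and 0.39 lower at 18 h, and its slope at 32 °C was −0.09 ± 0.02 (adjusted p = 0.0693). H1f6 (Hist1h1t), a linker histone gene known from testis, stayed within 5.99 to 6.28 on all arrays. At 18 h the signal at 32 °C was thus 0.762-fold of that at 37 °C for H1f1, 0.654-fold for H1f3, 0.735-fold for H1f5 and 1.06-fold for H1f2.

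**Figure D4:**
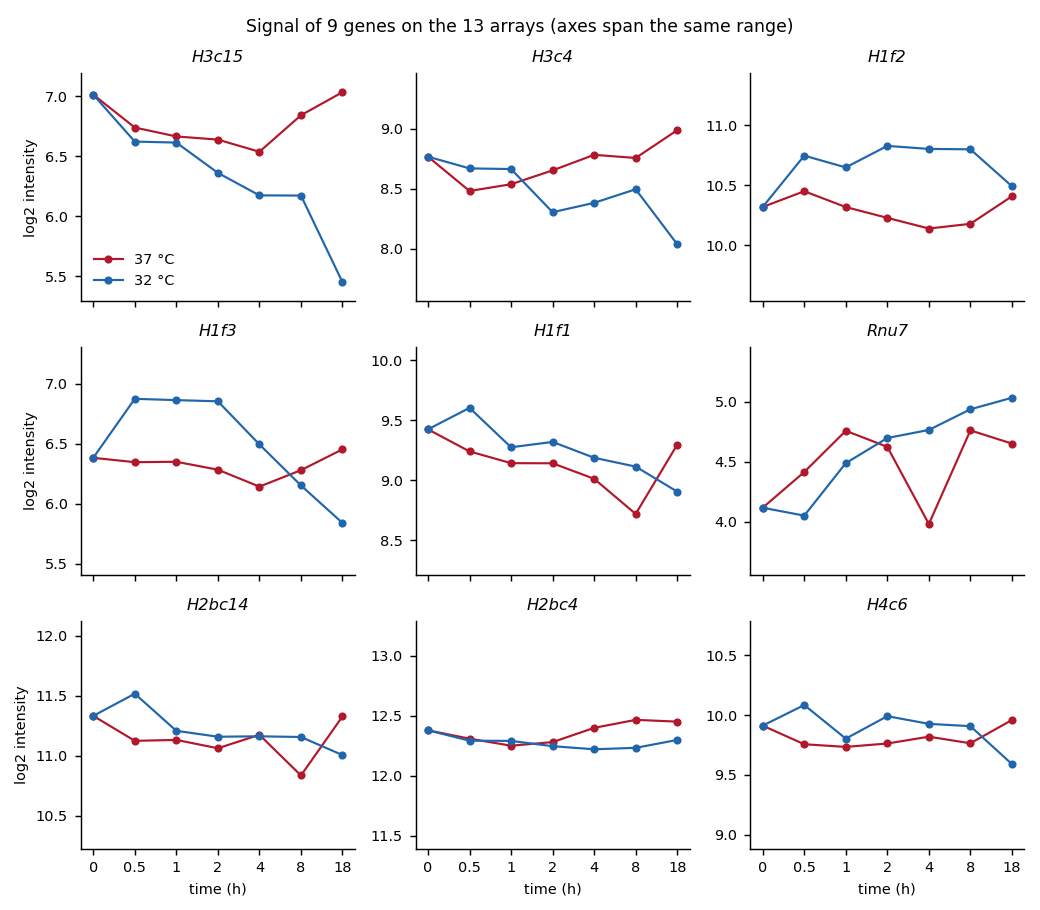
Log2 intensity (vertical axes, all spanning the same range) of 9 genes on the 13 arrays over time (horizontal axis, h, evenly spaced), red at 37 °C and blue at 32 °C, each point 1 array and both lines starting from the 0 h array. H3c15 ends at 5.45 at 32 °C and at 7.03 at 37 °C, and all 32 °C points of H1f2 lie above its 37 °C points.

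The H2A genes, whose products pair with H2B, showed differences under 0.41 in every pair. H2ac15 (Hist1h2ak), with the highest mean signal of its class, which is a property of its probes and no ranking of mRNA, read 12.10, 12.03, 11.97, 11.99, 11.98, 11.85 and 12.24 at 37 °C, in the order of the times from 0 to 18 h, and 12.17, 12.10, 11.89, 12.01, 12.08 and 11.84 at 32 °C from 0.5 to 18 h. H2ac8 (Hist1h2ae), with the most negative slope at 32 °C in the class, read 4.92, 4.62, 4.67, 4.80, 4.59, 4.44 and 4.83 at 37 °C, in the order of the times from 0 to 18 h, and 4.91, 4.75, 4.55, 4.73, 4.67 and 4.63 at 32 °C from 0.5 to 18 h. Both were higher at 32 °C in 4 of 6 pairs and lower at 2 and 18 h, and their slopes at 32 °C of −0.04 ± 0.02 and −0.05 ± 0.02 did not pass (adjusted p = 0.337 and 0.236). H2ac1 (Hist1h2aa), a testis type, read 8.47, 8.46, 8.44, 8.39, 8.45, 8.30 and 8.49 at 37 °C, in the order of the times from 0 to 18 h, and 8.54, 8.43, 8.22, 8.39, 8.54 and 8.61 at 32 °C from 0.5 to 18 h. It was 0.13 higher at 32 °C at 18 h, where H2ac15, H2ac4 and H2ac8 were 0.20 to 0.40 lower. H2aw (Hist3h2a) was higher at 32 °C in all 6 pairs, with a mean of 0.12 ± 0.04 (adjusted p = 0.271), and by 0.004 at 18 h.

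Of the 11 H2B genes 10 were lower at 32 °C at 18 h, by 0.004 to 0.46, and 10 were higher at 8 h. H2bc14 (Hist1h2bm), with the most negative slope, read 11.33, 11.12, 11.13, 11.06, 11.18, 10.84 and 11.33 at 37 °C, in the order of the times from 0 to 18 h, and 11.52, 11.21, 11.16, 11.16, 11.16 and 11.01 at 32 °C from 0.5 to 18 h. Its slope at 32 °C was −0.06 ± 0.02 (adjusted p = 0.147), and its 37 °C course was lowest at 8 h and back at its starting level at 18 h. H2bc4 (Hist1h2bc), with the highest mean signal, read 12.38, 12.31, 12.25, 12.28, 12.40, 12.47 and 12.45 at 37 °C, in the order of the times from 0 to 18 h, and 12.29, 12.29, 12.25, 12.22, 12.23 and 12.30 at 32 °C from 0.5 to 18 h. Unlike the other H2B genes it was lower at 32 °C at 4, 8 and 18 h alike, by 0.18, 0.23 and 0.15, with a late difference of −0.19 ± 0.06 (adjusted p = 0.122). H2bc21 (Hist2h2be), with the most positive slope, read 5.93, 5.84, 6.04, 5.98, 5.98, 5.94 and 5.99 at 37 °C, in the order of the times from 0 to 18 h, and 5.98, 5.79, 5.96, 6.01, 6.03 and 5.996 at 32 °C from 0.5 to 18 h. These values stayed between 5.79 and 6.04, and both temperatures overlapped. H2bc3 (Hist1h2bb) had the largest differences of the class, 0.46 higher at 32 °C at 8 h and 0.46 lower at 18 h. H2bc22, H2bu2, the testis type H2bc1 and the pseudogene H2bu1-ps differed by at most 0.24 in any pair.

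The 7 H4 genes code for the same protein, the partner of H3. All 7 were higher at 32 °C at 0.5 h, by 0.12 to 0.33, and all 7 were lower at 18 h, by 0.18 to 0.52. H4c4 (Hist1h4d), with the highest mean signal, read 12.92, 12.90, 12.84, 12.86, 12.87, 12.70 and 13.02 at 37 °C, in the order of the times from 0 to 18 h, and 13.07, 13.02, 12.999, 12.98, 12.85 and 12.80 at 32 °C from 0.5 to 18 h. H4c6 (Hist1h4f), with the most negative slope at 32 °C, read 9.91, 9.76, 9.73, 9.76, 9.82, 9.76 and 9.96 at 37 °C, in the order of the times from 0 to 18 h, and 10.08, 9.80, 9.99, 9.93, 9.91 and 9.59 at 32 °C from 0.5 to 18 h. Both were higher at 32 °C in the 5 pairs up to 8 h and lower at 18 h, at 0.861- and 0.775-fold of the 37 °C signal. H4c8 (Hist1h4h), with the most positive slope, read 6.72, 6.58, 6.55, 6.60, 6.68, 6.48 and 6.84 at 37 °C, in the order of the times from 0 to 18 h, and 6.70, 6.63, 6.78, 6.82, 6.76 and 6.65 at 32 °C from 0.5 to 18 h. It too was higher in 5 pairs and lower at 18 h. The slopes of these 3 at 32 °C, −0.03 ± 0.02, −0.04 ± 0.02 and 0.00 ± 0.02, did not pass (adjusted p from 0.386 to 0.926).

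Rnu7, whose RNA pairs with histone pre-mRNA just downstream of the cut, read 4.12, 4.41, 4.76, 4.62, 3.98, 4.76 and 4.65 at 37 °C, in the order of the times from 0 to 18 h, and 4.05, 4.49, 4.70, 4.77, 4.94 and 5.03 at 32 °C from 0.5 to 18 h. Its signal lay below the array's median throughout. At 32 °C it was lowest at 0.5 h and highest at 18 h, while at 37 °C it moved up and down with a range of 0.78. The slope at 32 °C was 0.17 ± 0.02 (adjusted p = 0.029; Kendall's tau of 0.905, exact p = 0.00278), and by 18 h the signal was 1.89-fold of that at 0 h at 32 °C and 1.45-fold at 37 °C. The slope at 37 °C was 0.05 ± 0.05 (adjusted p = 0.918). The divergence of 0.06 ± 0.03 did not pass (adjusted p = 0.266), so a different course at the temperatures was not shown. The late difference was 0.45 ± 0.12 (adjusted p = 0.0765), the mean of 0.78 at 4 h, where the 37 °C array was at its lowest, 0.18 at 8 h and 0.38 at 18 h. Without any 1 of the 7 times, the slope at 32 °C kept its sign and passed only without 0.5 h or 2 h, with adjusted p up to 0.147.

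Transcript clusters assigned to several histone genes of 1 class give a second reading, which does not separate the copies. There were 23 of them, 7 of H2B, 10 of H3 and 6 of H4, of which 2 repeated the values of another cluster exactly. Many others nearly coincided within a class, as in H3 clusters that read 13.265, 13.268 and 13.263 at 0 h. The counts below are therefore not counts of separate measurements, and they come from the same 13 arrays. All 23 were higher at 32 °C at 0.5, 1, 4 and 8 h, 18 were at 2 h, and all 23 were lower at 18 h. Their median difference was 0.18 at 0.5 h and −0.26 at 18 h. The 10 shared H3 clusters were lower at 18 h by 0.25 to 0.33, whereas H3c15 and H3c4 were lower by 1.58 and 0.95. These readings differ in level, with 12.90 to 13.44 for the shared H3 clusters, 5.45 to 7.03 for H3c15 and 8.04 to 8.99 for H3c4. Whether the level affects the size of the differences was not tested. The divergence of the 10 shared H3 clusters lay between −0.01 and 0.004, and none of the 23 clusters passed in any test. The transcript clusters of H3c15, H3c4 and H1f2 have no RefSeq transcript among the records listed for them, unlike those of the 29 other members, and these 3 genes have the 3 largest absolute divergences of the 32. Whether their probes read the mature histone mRNA was not tested. Without these 3, the histone genes had a median difference of 0.18 at 0.5 h, with 26 of 28 higher, and of −0.21 at 18 h, with 4 of 28 higher.

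Genes that act on histone mRNA or with histones were taken as lists. Of 24 genes of histone mRNA 3′ processing and turnover 1 passed in the divergence, downward, and it was also the only one in the late effect, where 1.66% and 2.15% of all genes were called lower, so that a count of 1 is close to the share over all genes. This was Ncbp2, a subunit of the nuclear cap-binding complex, which read 10.18, 10.01, 10.03, 10.02, 10.09, 10.09 and 10.15 at 37 °C, in the order of the times from 0 to 18 h, and 9.88, 9.94, 10.07, 9.80, 9.66 and 9.69 at 32 °C from 0.5 to 18 h. It was lower at 32 °C at 0.5, 1, 4, 8 and 18 h, with a late difference of −0.40 ± 0.07 (adjusted p = 0.0226) and a divergence of −0.07 ± 0.01 (adjusted p = 0.0285). The median divergence of the list was −0.01. Slbp, the stem-loop binding protein, was 9.19 at 37 °C and 8.92 at 32 °C at 18 h, by the brighter of its 2 transcript clusters. This compares 1 array with 1 array, and Slbp did not pass in the divergence or the late effect. Of 11 genes of histone gene transcription none passed, and the lowest unadjusted p in the divergence were those of Casp8ap2 (−0.06 ± 0.02, adjusted p = 0.0646), which is needed for histone gene expression and also counted in the first list, Yy1 (−0.05 ± 0.01, adjusted p = 0.0694), a transcription factor, and Ccne2 (−0.10 ± 0.03, adjusted p = 0.163), a cyclin of the G1 to S transition. All 11 had a negative divergence, with a median of −0.03, and all 11 were lower at 32 °C at 18 h, with a median difference of −0.38. Of all genes, 46.2% had a negative divergence and 54.6% were higher at 32 °C at 18 h.

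The 34 genes of DNA replication were lower at 32 °C at 18 h without exception, by a median of −0.54, or 0.69-fold, after medians of 0.15, 0.05, 0.16, 0.14 and 0.06 in the earlier pairs, in which 27, 25, 31, 29 and 20 of them were higher. Of all genes, 58.4%, 49.2%, 51.7%, 48.1% and 47.5% were higher in the earlier pairs and 54.6% at 18 h. The slope was negative for all 34 at 32 °C (median −0.08) and for 31 of 34 at 37 °C (median −0.02), against 43.4% and 44.3% of all genes, and 1, Gins3, a subunit of the replicative helicase, passed in the divergence (−0.06 ± 0.01, adjusted p = 0.0462), a count close to the 1.66% of all genes called lower. Of 15 histone chaperones and assembly factors none passed in any test, and 3 were higher at 32 °C at 18 h (median −0.24). The 9 replication-independent variant genes, which are expressed outside S phase too, also had none that passed, and 2 of 9 were higher at 18 h, with a median of −0.06. The lowest unadjusted p among them in the divergence were those of H1f10, a linker histone (0.05 ± 0.01, adjusted p = 0.0684), and H2az2, an H2A.Z gene (0.04 ± 0.01, adjusted p = 0.199).

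**Figure D5:**
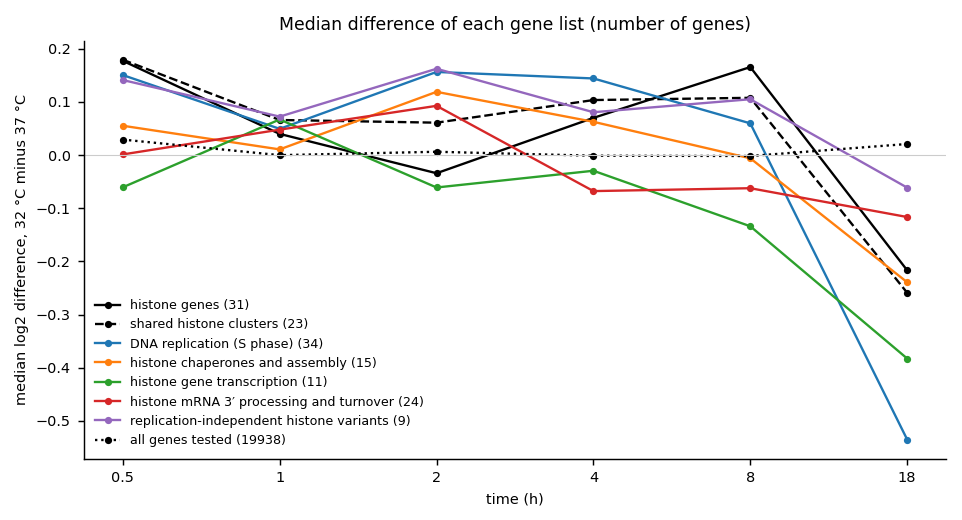
Median log2 difference between 32 °C and 37 °C (vertical axis) at each time (horizontal axis, h) for the 31 histone genes, the 23 shared histone clusters, 5 related gene lists and all genes tested. At 18 h the DNA replication genes lie at −0.54, the histone genes at −0.22 and the replication-independent variants at −0.06.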

How the data were processed

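RNA of primary mouse embryonic fibroblasts was hybridized to 13 Affymetrix Mouse Gene 1.0 ST arrays after labelling with a whole-transcript kit. The table the authors deposited holds linear intensities for 28853 transcript clusters, with values from 4.24 to 18146.4. Its summarization and normalization are not given in the sources used. The deposited intensities were log2 transformed and otherwise used as given, because the array medians differed by only 0.046 on the log2 scale. Clusters with 1 gene symbol (21789) were kept, 21698 of them were matched by Entrez identifier to the GRCm38.p6 annotation, and the cluster with the highest mean stood for a gene, which left 19938 genes. All 32 members had 1 cluster, so this choice did not affect them. The 1621 clusters with several symbols were left out of the tests, except as an alternative.

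Models were fitted with limma 3.58.1 (lmFit, eBayes) in R 4.3.3, and p-values were 2-sided and adjusted over all genes by Benjamini-Hochberg, with 0.05 as threshold. The time order ran from 0 to 6. For the divergence, 32 °C entered only as a product with the order, and time entered as a block. Early, late and matched effects came from fits with time as a block. The fits were run on simulated data with independent noise of equal spread for every gene. This checks that planted slopes are recovered, and not the error rates in the real arrays. Kendall's tau was tested exactly. Tables were made with pandas 2.3.3 and figures with matplotlib 3.10.9.

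Values of every array are given for Rnu7, for members past the threshold, and in each class for those with the lowest and highest slope at 32 °C and the highest mean signal. From each list, members past the threshold are named, otherwise up to 4 with the lowest unadjusted p in the divergence; Slbp was named for its role. Members and lists were chosen with earlier results of these data known. The alternatives were quantile normalization, ranks from 0 to 100 within arrays, the mean over clusters of a gene, every cluster tested, only clusters above the median signal, a log2(hours + 1) axis, Kendall's tau, a separate term for 32 °C, shared clusters added as members, and leaving out each time. The test of late minus early effects, the shares of genes higher at 32 °C under other scalings, and the H1 box were added after the data had been seen. Promoter windows came from the RefSeq table of GRCm38.p6.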

Additional observations from a re-analysis of the deposited data

Results flagged for a closer look

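The time courses of H3c15 and H3c4 differed between the temperatures by the main test of that difference, but not by all of its alternatives. The divergence of H3c15 was −0.169 ± 0.026 per step (adjusted p = 0.0159, lower at 32 °C in 6 of 6 pairs), and that of H3c4 was −0.101 ± 0.022 (adjusted p = 0.0392, lower in 4 of 6 pairs). With a separate term for 32 °C neither divergence passed (adjusted p = 0.135 for each). On ranks within arrays neither passed (adjusted p = 0.0586 for H3c15 and 0.0939 for H3c4). Groups of 1 array allow no search for single deviating arrays.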

How the results depend on the processing

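Quantile normalization, the mean over clusters, every cluster tested and shared clusters added kept the number of members past the threshold in each of the 6 tests. Apart from Kendall's tau, the shares of all genes called under the alternatives are not given. The counts below therefore show only how the calls of members moved, and are no result about histone genes against other genes. On ranks within arrays no member passed in the slope at 32 °C (0), the divergence (0) or the late effect (0). With the filter on signal, which removes H3c15 and Rnu7, 1 passed in the slope at 32 °C (H1f1), 2 in the late effect (H1f2 and H3c4) and 2 in the divergence (again H1f2, upward, and H3c4). The filter also changes the genes over which p is adjusted. The late coefficient of H1f2 stayed at 0.456 while its adjusted p in limma went from 0.0623 to 0.0413. On the log2(hours + 1) axis H1f1 joined H3c15 and Rnu7 in the slope at 32 °C, and the divergence was called for H3c15 and H3c4. With Kendall's tau 0 members passed, and 0 of all genes tested did. With a separate term for 32 °C 0 members passed in the divergence, whose median over the histone genes was then −0.047. Leaving out 1 time gave 0 to 2 members in the slope at 32 °C and in the divergence, and 0 to 1 in the late effect. The median slope of the histone genes was then −0.033 to −0.011 at 32 °C and −0.028 to 0.017 at 37 °C, the median early effect −0.002 to 0.134, the median divergence −0.014 to 0.024, and the median late effect −0.080 to 0.112. The values farthest from the main ones came without 18 h for both slopes, the divergence and the late effect. The share of histone genes higher at 32 °C at 18 h was 9.68% after quantile normalization, 9.68% on ranks and 9.26% with shared clusters added, and the shares at the other times stayed within 1.5 times of the values given. The cause of these changes was not tested. Pairs of arrays of equal time entered every comparison of temperatures as a block. Signal limits the 10 members below the array's median, H1f3, H1f6, H2ac8, H2bc21, H2bc22, H2bu2, H3c15, H3c7, H4c8 and Rnu7.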
